A study of Mus musculus with 2 samples.

Results

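The genes of the G2/M transition and of the mitotic spindle were read in long-term hematopoietic stem cells (LT-HSCs) of old mice. The set holds 52 genes, chosen by name for their roles in entry into mitosis, spindle assembly, chromosome segregation and cytokinesis, among 22555 genes that the array's probes could be named for. They were covered by 71 probes, with 1 probe for 38 genes, 2 for 9 genes and 3 for 5 genes. LT-HSCs were sorted from bone marrow of C57BL/6J mice at an age of 2 years, by the gate CD150+CD48-*Flt3*-CD34- within lineage-, Sca-1+ and c-*Kit*+ (LSK) cells, to which the methods add CD41-. In the p38KO group (p38αΔ/Δ), tamoxifen (TAM) had been given about 1 year earlier to mice carrying CAG-CreERT2 and floxed p38α, the gene *Mapk14*. The wild-type group (p38α+/+) was age-matched, had p38αfl/fl alleles and TAM too, and lacked Cre, so that Cre as well as the deletion separates the groups. The CAG promoter is active in nearly all tissues, so the deletion was not limited to blood cells. RNA of each group was labelled with Cy3 and hybridized to 1 single-colour Agilent array, both on the same slide. The comparison asks how LT-HSCs of old mice differ when p38α was deleted in the later part of life. With 1 array per group there is no spread between mice and no test, and how many mice stand behind each array is not given in the sources used here.

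A cell enters mitosis when *Cdk1* binds cyclin B and is switched on by Cdc25 phosphatases. Aurora and Polo kinases then build the spindle, kinetochores tie chromosomes to it, and the spindle checkpoint holds the anaphase-promoting complex (APC/C) back until every chromosome is attached. Most of these genes are transcribed mainly late in the cell cycle, and LT-HSCs are known as a mostly quiescent population. In quiescent cells many of them are held silent by the DREAM complex, whose subunit *Lin54* contacts a promoter element named CHR (cell cycle genes homology region), and NF-Y binds the CCAAT boxes that often stand upstream of it.

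The promoters of the set shared these letters, which the choice of members did not use. RefSeq promoters of assembly GRCm38.p6, from 250 bases before to 50 bases after the start site, were listed for 44 of the 52 genes and searched on both strands for TTTGAA and TTCGAA (CHR) and for CCAAT. A CHR match was found in 33 of the 44 promoters (75.0%), against 19.4% of 27025 genes with a listed promoter. Within 50 bases on either side of the start site it was found in 30 of them (68.2%), against 5.29% of all genes. CCAAT was found in 32 (72.7%, against 37.9% of all genes), both elements in 29 (65.9%, against 7.7%), and no CHR match shared a base with a CCAAT match. In the 8 promoters of *Birc5*, *Kif18a*, *Mad2l1*, *Ncaph*, *Nuf2*, *Nusap1*, *Pttg1* and *Tacc3* neither was found in this window. The 100 bases before the start site are shown for 7 genes whose CHR match lies there, among them *Espl1* and *Cenpn*. CHR and CCAAT matches are in capitals, each read 5′ to 3′ on the gene's strand.
*Espl1*, chr15:102296193-102296292, plus strand: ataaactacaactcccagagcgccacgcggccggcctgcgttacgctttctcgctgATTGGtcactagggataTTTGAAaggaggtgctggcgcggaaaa
*Kif11*, chr19:37376282-37376381, plus strand: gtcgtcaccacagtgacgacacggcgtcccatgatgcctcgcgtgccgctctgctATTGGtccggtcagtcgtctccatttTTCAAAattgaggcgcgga
*Cdc20*, chr4:118437344-118437443, minus strand: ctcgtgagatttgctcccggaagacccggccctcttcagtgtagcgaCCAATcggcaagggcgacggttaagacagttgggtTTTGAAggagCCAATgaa
*Cdk1*, chr10:69352913-69353012, minus strand: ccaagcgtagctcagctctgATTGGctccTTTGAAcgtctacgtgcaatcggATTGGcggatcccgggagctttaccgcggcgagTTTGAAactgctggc
*Top2a*, chr11:99024190-99024289, minus strand: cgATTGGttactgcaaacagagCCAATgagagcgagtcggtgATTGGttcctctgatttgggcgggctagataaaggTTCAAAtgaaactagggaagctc
*Bub3*, chr7:131560270-131560369, plus strand: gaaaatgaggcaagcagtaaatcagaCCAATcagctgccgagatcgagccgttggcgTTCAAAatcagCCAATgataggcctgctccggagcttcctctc
*Cenpn*, chr8:116921640-116921739, plus strand: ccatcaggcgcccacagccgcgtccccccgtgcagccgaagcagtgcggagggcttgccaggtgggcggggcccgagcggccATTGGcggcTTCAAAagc

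**Figure D1:**
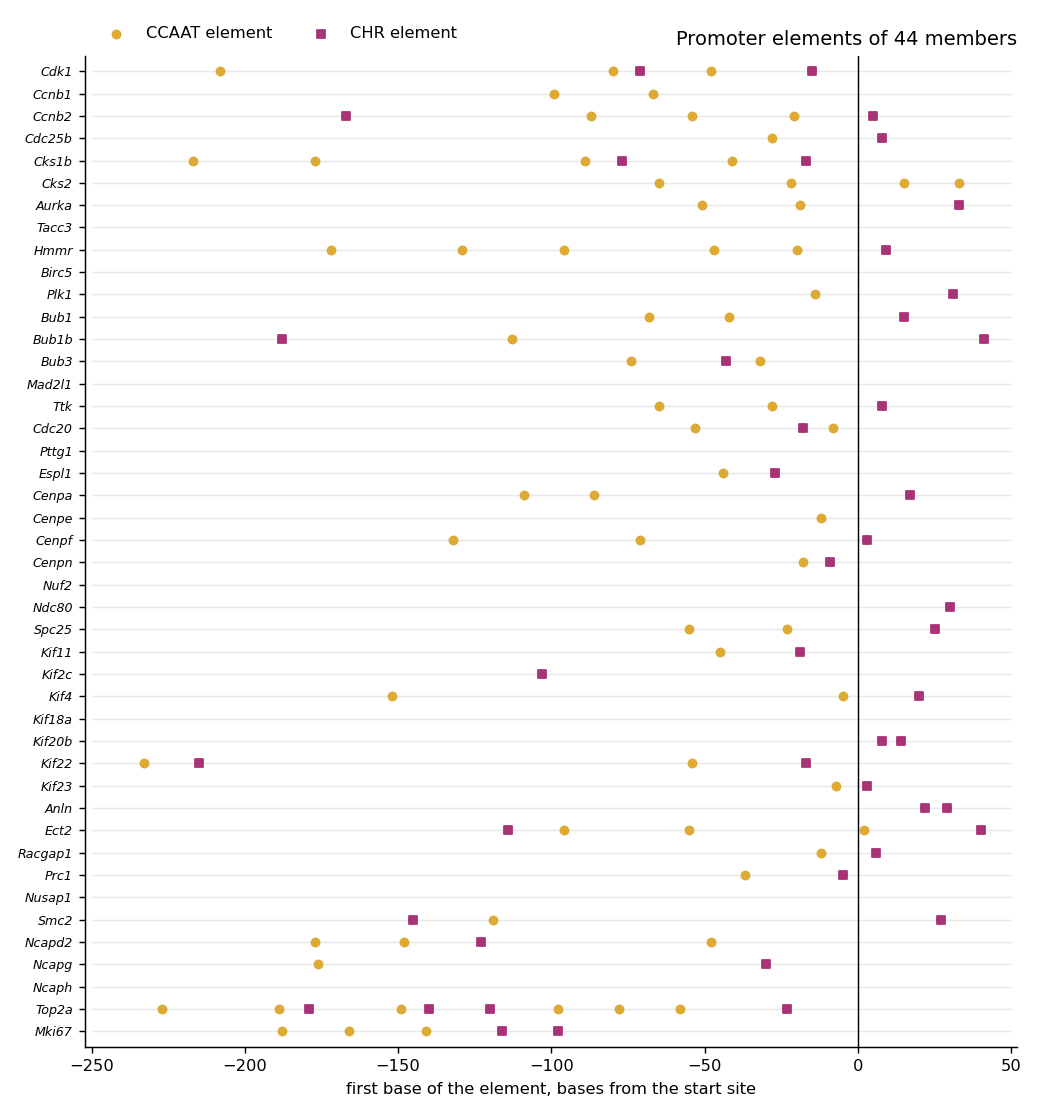
Positions of CHR (squares) and CCAAT (circles) matches in the promoters of 44 members, each on its own row, with the horizontal axis in bases from the start site (0, vertical line). In 30 of the 44 rows a CHR match lies within 50 bases of the start site, and in 8 rows there is no match of either kind.

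The 7 printed windows hold members that were higher and members that were lower on the array labelled p38KO. Over all members with a listed promoter, those with a CHR match had a median log2 difference of 0.19 (32 measured, 19 higher and 13 lower), and those without one a median of 0.21 (11 measured, 7 higher and 4 lower). The factors that act on these elements were read from a list of 23 genes. Of these, which cover the MuvB core, B-*Myb*, FoxM1, E2F, DP, pocket proteins and NF-Y, 13 were higher and 10 lower, with a median difference of 0.04 (-0.02 where a gene's probes were averaged). *Foxm1*, an activator of G2/M genes, was at -0.79 on the wild-type array and -0.45 on the array labelled p38KO, a difference of 0.34. The largest rises were *E2f2* (0.59) and *Rbl1* (0.34), and the largest falls were *E2f5* (-0.92) and *Lin37* (-0.45).

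All levels here are log2 signals relative to the array's 75th percentile, and all differences are the array labelled p38KO minus the wild-type array. A probe spotted repeatedly on the array varied between spots by a median SD of 0.09 on the wild-type array and 0.10 on the array labelled p38KO, which gives 0.13 for a difference between single spots. This error, like the scanner error quoted below, is that of a spot and not that between mice. Of 55662 probes, 67.9% and 69.0% were well above background, and no spot was saturated. The deleted gene did not check the label: the probes of *Mapk14* differed by -0.04 and -0.05, and whether they lie in the deleted exons is not known, so every direction rests on the label p38KO.

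Of the LT-HSC marker list, 13 of 14 genes were lower on the array labelled p38KO, with a median of -0.63, a summed level of 7.50 on the wild-type array and 7.14 on the other (log2 of the summed signals), and the largest fall at -1.44 (*Mecom*). Of the genes whose products define the gate, *Kit* was at 5.66 and 5.57. The others that the gate requires were lower, *Slamf1* (CD150) by -0.82 and *Ly6a* (Sca-1) by -0.78. Markers of mature cells were mostly higher on the array labelled p38KO. Of granulocyte and monocyte genes 9 of 12 were higher, with a median of 1.00 and differences from -1.41 (*Elane*) to 2.23 (*Ltf*). Their summed level was 7.77 and 8.22, most of it that of *Itgam*, at 7.50 and 7.92 (0.42). Of B and plasma cell genes all 9 with a difference were higher, with a median of 0.69, a summed level of 2.01 and 4.27, and differences from 0.09 (*Cd79b*) to 3.75 (*Jchain*). Most of the rise of this summed level was that of *Jchain*, at 0.18 and 3.93. Of the 9 genes, 7 were well above background on both arrays. *Ms4a1* and *Ebf1* were not so on the wild-type array and entered only through the array labelled p38KO. Of T and NK cell genes 6 of 8 were higher, with a median of 0.60, a summed level of 4.36 and 4.66, and differences from -4.43 (*Zap70*) to 3.54 (*Icos*). Of erythroid genes 7 of 9 were higher, with a median of 0.46, a summed level of 4.62 and 5.09, and differences from -1.10 (*Hbb-bt*) to 1.06 (*Slc4a1*). Of megakaryocyte genes 3 of 7 were higher, with a median of 0.00, a summed level of 5.59 and 5.37, and differences from -0.55 (*Vwf*) to at least 1.67 (*Gp6*). *Gp6*, like *Ms4a1* and *Ebf1*, was not well above background on the wild-type array. Of the genes outside the gate, *Cd48* was higher by 1.37 and *Flt3* by 0.36, and *Cd34* differed by -0.15. The defining markers *Cd3d*, *Cd3g* and *Igll1* were not well above background on either array. The part of these lists in the results below was not tested. A different share of cycling cells and a different amount of RNA per cell cannot be told apart in sorted bulk cells.

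Of the 52 members, 50 were well above background on both arrays. *Cenpf* was dim on the array labelled p38KO (its signal did not stand well above background), and *Ncapg* was dim on both and has no difference. Of the 51 with a difference, 31 were higher (60.8%, against 47.6% of 17191 genes) and 20 were lower on the array labelled p38KO. Their median difference was 0.15 and that of all genes was -0.03. The quartiles were -0.25 and 0.32 for the members and -0.38 and 0.33 for all genes, and 10 of 51 (19.6%, against 19.9% of all genes) differed by less than the 0.13 of spot error. At least 1.5-fold lower were 5 members, *Ccnb1*, *Cenpn*, *Cdc25b*, *Kif4* and *Bub3*, which is 5 of 51 against a background of 15.4% of all genes. At least 1.5-fold higher were also 5, *Espl1*, *Anln*, *Cenpe*, *Ncaph* and *Hmmr*, against 12.7% of all genes. Only *Espl1* was at least 2-fold higher (background 4.11%) and 0 members were at least 2-fold lower (background 6.62%), with no test possible.

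**Figure D2:**
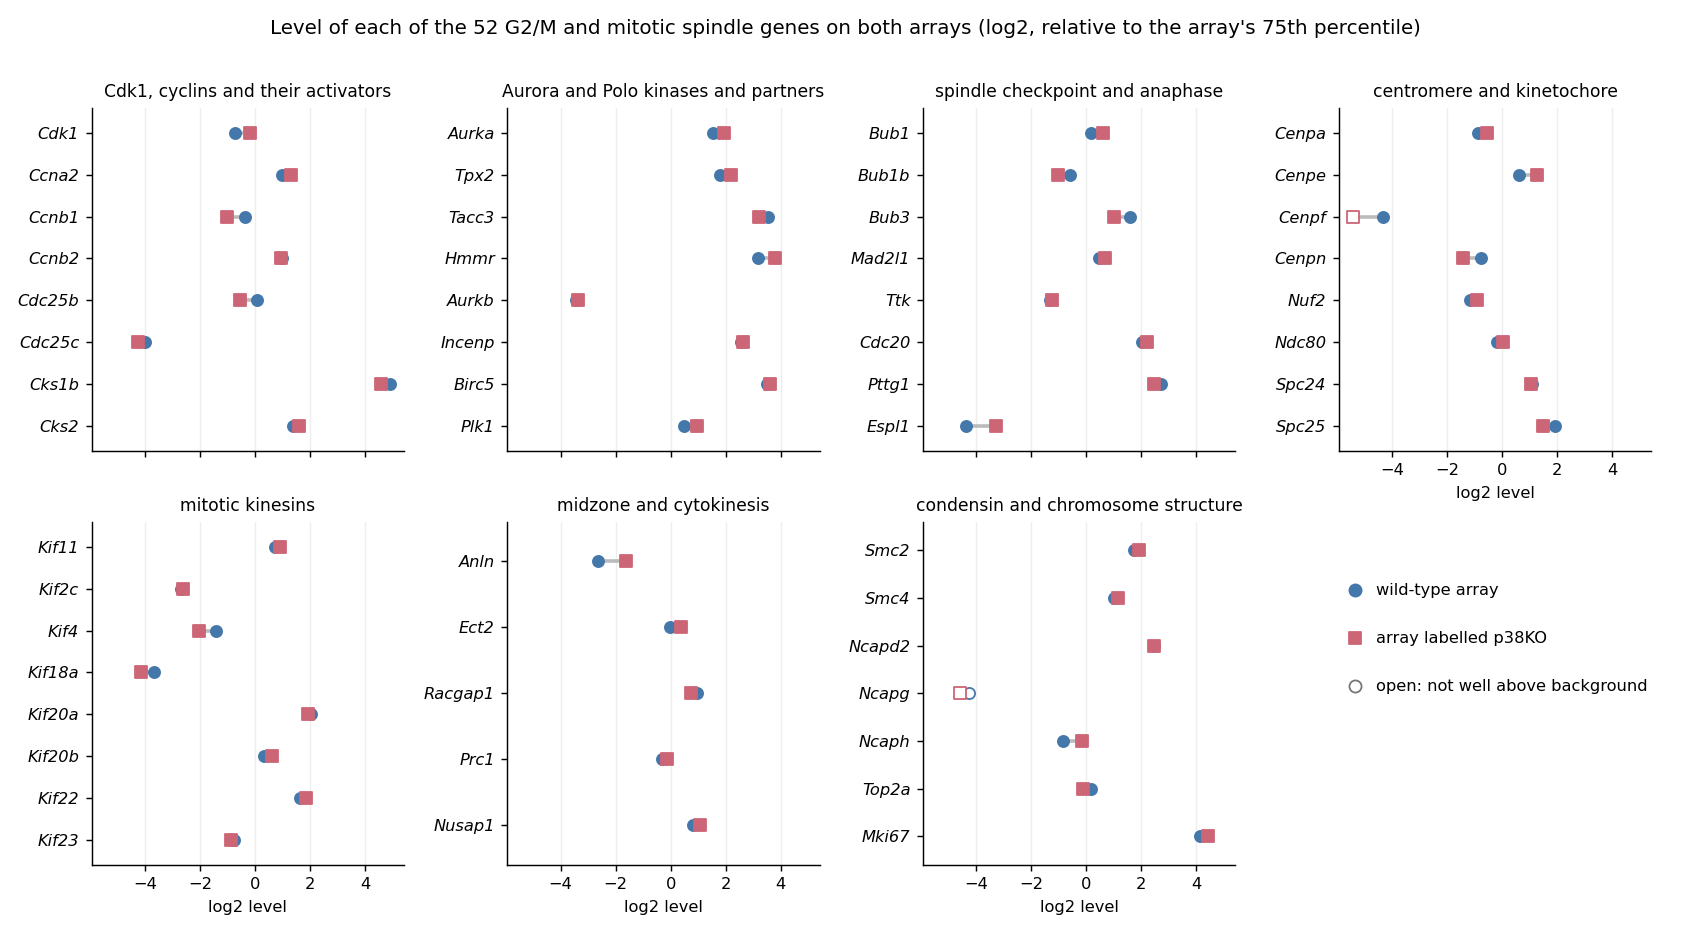
Level of every member on the wild-type array (circles) and on the array labelled p38KO (squares), in 7 panels by role, with the horizontal axis in log2 relative to the array's 75th percentile and open symbols for signals not well above background. The symbols of most genes lie close together, and the widest gaps between filled symbols are those of Espl1 (1.08) and Anln (0.99).

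**Figure D3:**
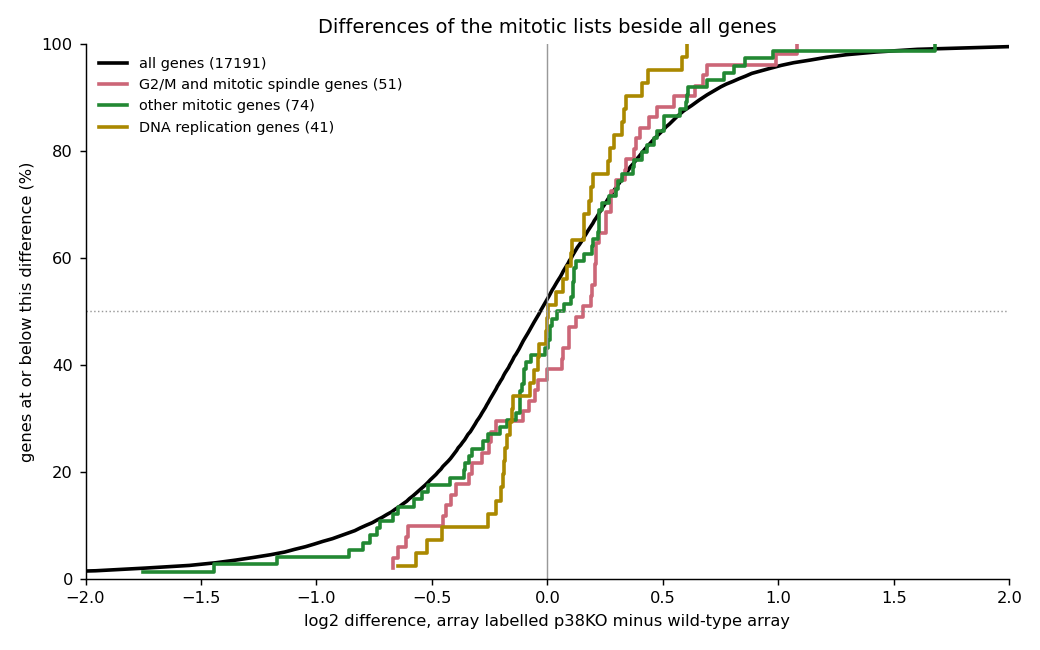
Share of genes (vertical axis, percent) at or below each log2 difference (horizontal axis, the array labelled p38KO minus wild-type) for the 51 members, 74 other mitotic genes, 41 DNA replication genes and all 17191 genes. The members' curve crosses 50% at 0.15, to the right of all genes at -0.03.

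How far a difference can be trusted depended on how bright the probe was. When all genes were ranked by mean level and divided into 4 equal parts, 44.7% of the dimmest part differed by at least 1.5-fold in either direction, 35.8% and 21.2% of the parts above it, and 10.6% of the brightest. The dimmest part held 6 members (*Aurkb*, *Cdc25c*, *Cenpf*, *Espl1*, *Kif18a* and *Kif2c*), of which 3 were higher and 1, *Espl1*, was past 1.5-fold, with a median of -0.08 against 0.09 of all its genes. The part above it held 10, 5 of them higher, with a median of -0.01 against -0.01, of which 5 were past 1.5-fold (3 lower, *Ccnb1*, *Cenpn* and *Kif4*, and 2 higher, *Anln* and *Ncaph*). The third part held 20 members, 14 of them higher, with a median of 0.22 against -0.06 of all its genes, and 2 lower (*Bub3*, *Cdc25b*) and 1 higher (*Cenpe*) past 1.5-fold. The brightest held 15, 9 of them higher, with a median of 0.13 against -0.09, and only *Hmmr* past 1.5-fold.

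Genes of *Cdk1*, its cyclins and their activators did not move together: 3 of 8 were higher and 5 lower, with a median of -0.15 (0.04 under the normexp background correction, where 4 were higher). *Cdk1*, the kinase that starts mitosis, was at -0.72 on the wild-type array and -0.18 on the array labelled p38KO by its brightest probe, a difference of 0.55 ± 0.21 (scanner error, here and below). Its other probes gave -0.29 and 0.03, although the 2 share 41 bases of the same stretch of the gene, and the mean of the 3 was 0.10, so *Cdk1* had no direction that its probes shared. *Ccnb1* (cyclin B1), the partner of *Cdk1* at mitotic entry, was at -0.35 and -1.01, a difference of -0.67 ± 0.21 or 1.59-fold lower. Its other probes also read lower, with differences of -0.86 and -0.11. The probes with the larger falls are shown because they bear the result. They are mm9 chr13:101551224-101551283 and chr13:101553449-101553508, both on the minus strand, and begin 846 and 532 bases into the transcript the array design names.
*Ccnb1*, brightest probe: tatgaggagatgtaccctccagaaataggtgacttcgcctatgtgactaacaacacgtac
*Ccnb1*, probe with the largest fall: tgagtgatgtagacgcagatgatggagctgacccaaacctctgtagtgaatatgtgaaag

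The closely related cyclin *Ccnb2* was at 1.00 and 0.94, a difference of -0.05 that is within spot error. *Cdc25b*, a phosphatase that removes the inhibitory phosphates of *Cdk1*, was at 0.09 and -0.56 (-0.65 ± 0.21, 1.57-fold lower). *Cdc25c*, of the same family, was near background on both arrays (signals of 9.01 ± 1.61 and 6.11 ± 1.17) with a difference of -0.24, which was 0.16 under the normexp correction. *Ccna2* (cyclin A2), which acts in S phase and G2, was at 0.98 and 1.32 (0.34). The Cdk-binding proteins *Cks1b* and *Cks2* went opposite ways, *Cks1b* by -0.33 with both of its probes and *Cks2* by 0.25.

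Most genes of the Aurora and Polo kinases and their partners were higher on the array labelled p38KO, 7 of 8 with a median of 0.25 (6 of 8 and 0.33 under the loess). Of the 8, 3 differed by less than the spot error, *Incenp*, *Birc5* and *Aurkb* by their brightest probes. *Hmmr*, a spindle protein that helps place Aurora A, was at 3.17 and 3.81 (0.64 ± 0.20, 1.56-fold higher), with signals of 1294 and 1615 that were far from background on both arrays. *Plk1* (Polo-like kinase 1) was at 0.47 and 0.95 (0.48). *Aurka* (Aurora A) was at 1.54 and 1.92 (0.38), and *Tpx2*, its activator on the spindle, at 1.80 and 2.20 (0.40). *Tacc3*, which binds spindle microtubules after Aurora A has phosphorylated it, was the exception at 3.54 and 3.20 (-0.34). The chromosomal passenger complex differed less: *Incenp* by 0.07 and 0.17 with its 2 probes, which share 45 bases, *Birc5* (survivin) by between 0.09 and 0.44 with its 3 probes, and *Aurkb* (Aurora B), near background, by 0.09 ± 0.30 (-0.01 under the loess).

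In the spindle checkpoint and anaphase group 5 of 8 genes were higher and 3 lower, with a median of 0.13. *Espl1* (separase), the protease that cuts cohesin at anaphase, had the largest difference by brightest probe among members measured on both arrays, -4.38 and -3.29 (1.08 ± 0.35, 2.12-fold higher). It was also close to background, with signals of 6.91 ± 1.44 and 11.7 ± 1.51, and under the normexp correction the difference was 0.32. The 60 bases of its only probe are spread over 239 bases of the genome, mm9 chr15:102153644-102153882 on the plus strand, and so bridge an intron.
*Espl1*, only probe: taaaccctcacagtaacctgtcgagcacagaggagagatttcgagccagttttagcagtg

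*Pttg1* (securin), the inhibitor of separase, had differences of -0.25 and -0.24 with its 2 probes. The checkpoint proteins that bind one another differed in direction. *Bub3*, which carries *Bub1* and *Bub1b* to kinetochores, was at 1.60 and 0.99 (-0.60 ± 0.20, 1.52-fold lower). *Bub1b* (BubR1), its partner in the inhibitor of the APC/C, was at -0.61 and -1.03 (-0.42). *Bub1*, a kinase of the kinetochore, was at 0.18 and 0.62 (0.44 ± 0.20). *Bub1* is the only member whose probe was spotted repeatedly, 9 times on each array, with an SD between spots of 0.07 on the wild-type array and 0.08 on the other, so its difference was larger than the error between spots. *Mad2l1* (Mad2), the checkpoint's diffusible inhibitor, was higher with all 3 probes, by between 0.12 and 0.67. *Cdc20*, which Mad2 holds and which activates the APC/C, was at 2.02 and 2.22 (0.20), and *Ttk* (Mps1), the kinase that starts checkpoint signalling, differed by 0.06.

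Of the centromere and kinetochore genes 4 were higher and 4 lower, with a median of 0.09. *Cenpe*, a kinesin that moves chromosomes to the spindle equator, was at 0.60 and 1.29 (0.69 ± 0.20, 1.61-fold higher). *Cenpn*, which reads the centromeric nucleosome, was at -0.75 and -1.42 (-0.67 ± 0.21, 1.59-fold lower), a difference close to that of *Ccnb1*, and -0.24 under the normexp correction. *Cenpa*, the centromeric histone itself, was higher by 0.33. The 4 subunits of the *Ndc80* complex, the main microtubule coupler, did not share a direction: *Ndc80* was higher by 0.22 and *Nuf2* by 0.27, *Spc24* differed by -0.04 and *Spc25* by -0.44. *Cenpf*, a large protein of the outer kinetochore, had a signal of 7.16 ± 1.58 on the wild-type array and a dim one, of 2.70 ± 1.08, on the other, so that it was at least 1.32-fold lower, with the opposite sign (0.10) under the normexp correction. A further probe of *Nuf2*, drawn from a cDNA clone rather than a RefSeq transcript, was not well above background on the wild-type array (5.98 ± 1.45) and gave 17.3 ± 2.23 on the array labelled p38KO, at least 3.61-fold higher.

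The mitotic kinesins had a median of 0.01, with 4 higher and 4 lower (-0.05 where probes of a gene were averaged and 0.14 under the normexp correction, where 6 were higher). *Kif4*, a chromokinesin that shortens microtubules at the midzone, was at -1.43 and -2.05 (-0.61 ± 0.21, 1.53-fold lower). *Kif20b* was the largest rise at 0.33 and 0.62 (0.30). *Kif11* (Eg5), the motor that pushes the spindle poles apart, was higher by 0.21 and *Kif22* by 0.21. *Kif20a* differed by -0.10 and *Kif2c* by 0.09 and -0.10 with its 2 probes, all within spot error. *Kif18a* had a difference of -0.45 ± 0.37 at a signal near background, and of 0.14 under the normexp correction.

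*Kif23* (MKLP1), the kinesin of the centralspindlin complex at the midzone, gave 2 different readings. Its brightest probe by mean log2 level had signals of 84.0 ± 8.50 and 63.8 ± 6.45, a difference of -0.08 after scaling. Its other probe had a signal of 180 ± 18.0 on the wild-type array and a dim one of 1.05 ± 1.06 on the array labelled p38KO, at least 33.1-fold lower. Such a loss was rare on these arrays: of 13916 probes at or above the 75th percentile of the wild-type array, 19 (0.137%) were dim on the array labelled p38KO, and 2 of 13916 (0.0144%) the other way. Both probes were spotted a single time and neither spot was marked as an outlier, so the disagreement cannot be checked within the array. The first was designed on a RefSeq transcript and spans mm9 chr9:61767492-61767732, and the other on a cDNA clone at chr9:61775096-61775155, both on the minus strand. Their sequences are given because the direction of *Kif23* turns on which one is read.
*Kif23*, RefSeq transcript probe: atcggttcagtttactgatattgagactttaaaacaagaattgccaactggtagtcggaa
*Kif23*, cDNA clone probe: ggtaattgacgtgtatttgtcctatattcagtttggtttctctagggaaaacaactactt

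*Racgap1*, the partner of *Kif23* in centralspindlin, was at 0.97 and 0.74 by its brightest probe (-0.22) and differed by -0.61 with its other, which shares 10 bases with it. The other genes of the midzone and of cytokinesis were higher, so that 4 of 5 were higher with a median of 0.25. *Anln* (anillin), the scaffold of the contractile ring, was at -2.62 and -1.64 (0.99 ± 0.22, 1.98-fold higher), from signals of 23.3 ± 2.65 and 37.0 ± 3.82. Under the normexp correction it was higher by 0.47. *Ect2*, the exchange factor that switches on the ring's GTPase, was higher by 0.37, *Nusap1* by 0.25 and *Prc1*, which bundles midzone microtubules, by 0.19.

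Of the condensin and chromosome structure genes 4 were higher and 2 lower among the 6 measured, with a median of 0.17. *Ncaph*, a condensin I subunit, was at -0.84 and -0.16 (0.67 ± 0.21, 1.60-fold higher). The core subunits *Smc2* and *Smc4* were higher by 0.19 and 0.15, and *Ncapd2* was at 2.45 on both arrays. *Ncapg* had signals of 7.51 ± 1.71 and 4.82 ± 1.21, not well above background on either. *Top2a*, the topoisomerase that untangles sister DNA, was at 0.17 and -0.11 (-0.28), and *Mki67* (Ki-67), the common marker of cycling cells, was at 4.14 and 4.41 (0.27), and 0.10 with its other probe.

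Probes of a gene were then set beside each other. Of 10 members with at least 2 probes well above background on both arrays, 8 had the same sign with every probe (80.0%), against 53.4% of 4546 genes, and the exceptions were *Cdk1* and *Kif2c*. The median range between the probes of a gene was 0.27 for the members and 0.50 for all genes. Members and all genes were not matched by level or by number of probes. Probes that overlap on the gene, as in *Cdk1*, *Incenp* and *Racgap1*, are not independent of each other.

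**Figure D4:**
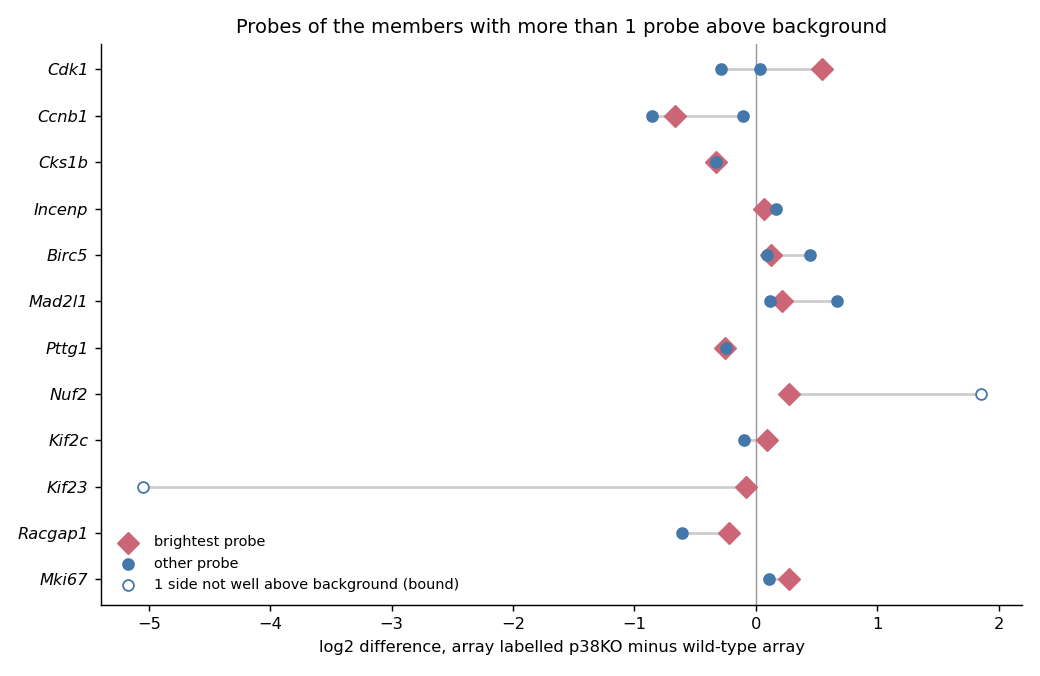
Log2 difference (horizontal axis, the array labelled p38KO minus wild-type) of each probe of the 12 members with more than 1 probe above background on at least 1 array, with diamonds for the brightest probe, circles for the others and open circles for bounds. The probes of Cdk1 lie on both sides of 0, and the second probe of Kif23 lies far to the left of its first.

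Other genes of the same pathway were read from lists. Of 75 other mitotic genes, 74 were measured, 42 higher and 32 lower with a median of 0.06. Past 1.5-fold were 10 of the 74 downward and 9 upward, shares near the 15.4% and 12.7% of all genes. The largest rises among those above background on both arrays were *Depdc1a* (1.68) and *Mad1l1* (0.98), and the largest falls *Knl1* (-1.44), the kinetochore scaffold that carries *Bub1* and *Bub3*, and *Ska2* (-1.17). The APC/C and its regulators had 6 of 17 measured genes higher, a median of -0.04 (0.01 under the loess), with 3 past 1.5-fold downward and 0 upward, where 15.4% and 12.7% of all genes were. Of its genes the largest falls were *Fbxo5* (-0.66), the interphase inhibitor of the APC/C better known as Emi1, and *Anapc13* (-0.65), and the largest rises the ubiquitin-conjugating enzyme *Ube2s* (0.58) and *Cdc16* (0.39). DNA replication genes, which act in the preceding S phase, were evenly split, 21 higher and 20 lower with a median of 0.00. They ranged from *Gins2* (-0.65) and *Gins3* (-0.57) to *Uhrf1* (0.58) and *Cdc45* (0.60).

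Genes that hold cells in G2 or inhibit *Cdk1* were read from a list of 14. Of these, 6 were higher and 8 lower, with a median of -0.09 and a range from -1.22 to 2.42. *Cdkn1a* (p21), a Cdk inhibitor, was at -3.68 on the wild-type array and -1.26 on the array labelled p38KO, 5.35-fold higher. Its wild-type level was that of *Kif18a* (-3.68), whose signal was near background, so the size of this fold is uncertain. *Chek1*, the kinase that restrains Cdc25, was at 0.18 and 1.04 (0.86). *Chek2*, a kinase of the damage response, was at -0.20 and -1.43 (-1.22, 2.34-fold lower), and *Rprm* (reprimo) at -1.35 and -2.24 (-0.88). CHR was found in 0 of the 11 promoters of this list that were in the table and in 19.4% of 31 promoters of the replication genes, against 58.7% of 63 promoters of the other mitotic genes. Over all 27025 genes with a listed promoter the share was 19.4%, the same as for the replication genes.

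**Figure D5:**
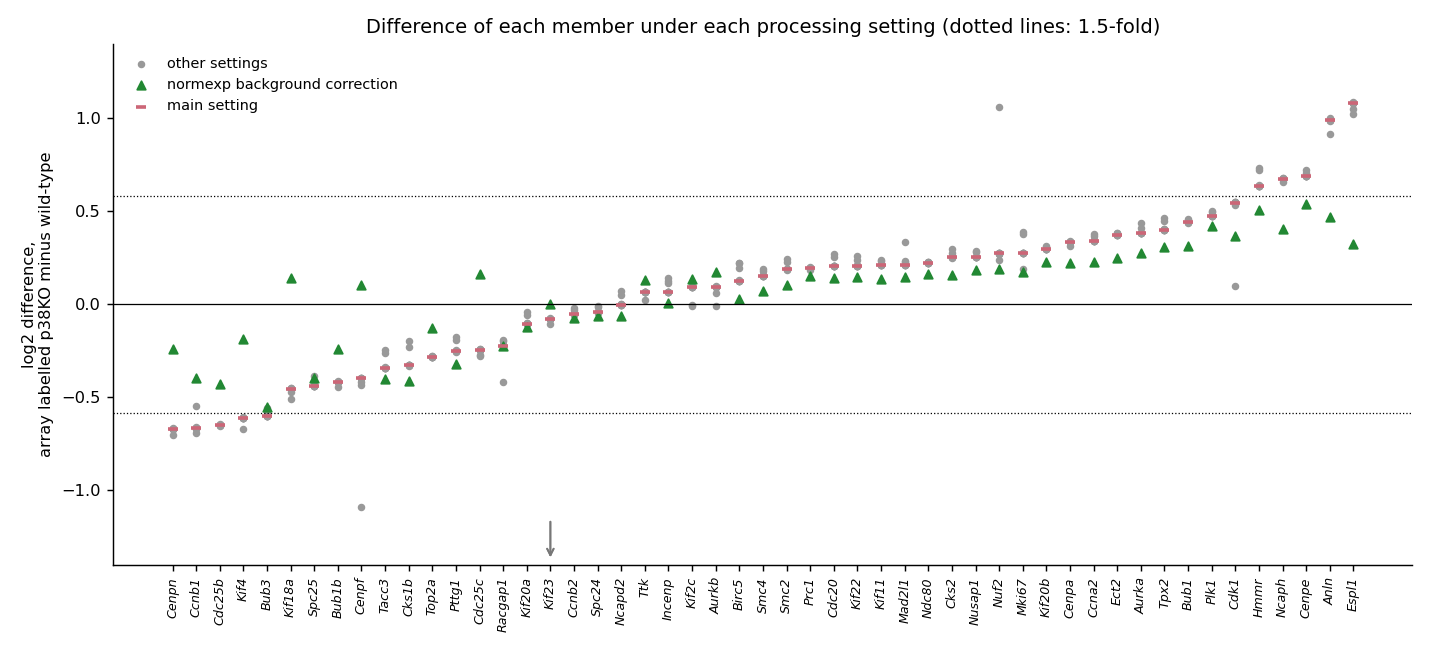
Log2 difference (vertical axis, the array labelled p38KO minus wild-type) of each of the 51 members, in order, under the main setting (bars), the normexp background correction (triangles) and the other settings (dots), with dotted lines at 1.5-fold and an arrow for Kif23, whose second probe takes it below the axis under 2 settings. The triangles lie closer to 0 than the bars for the members past 1.5-fold, and none of them is past a dotted line.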

How the data were processed

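The authors deposited, per array, the intensity of every spot, background-subtracted and detrended by Agilent Feature Extraction 11.5.1.1 on a design with mm9 coordinates and not normalized between arrays. RNA extraction, hybridization and normalization were outsourced. The authors also deposited log2 values for 35795 probes, each the log2 signal minus 1 constant per array, used as an alternative. Control spots and outlier spots were left out, which removed 19 of 55681 probes. The log2 intensity was averaged over a probe's spots, and the 75th percentile of each array was subtracted. Probe names came from symbols, older symbols or RefSeq accessions (31778 probes, 22555 genes). The probe with the highest mean log2 level stood for a gene. Genes were kept where 1 array or both measured them well above background (17191 genes), and a dim value was replaced by the array's lowest detected signal where it lay under it. A fold against a dim value is given as a lower bound, whether or not the value was replaced. With 1 array per group no test was made: counts and medians are set beside those of all genes kept. The number of arrays limits the precision.

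The members and lists were chosen with earlier results of these data known. Values are given for every member, and both levels for those at least 1.5-fold apart and the largest rise and fall of each role group. Of other pathway lists the 2 largest falls and rises are named, and of marker lists the extremes, except where an item is not reported here. *Foxm1*, *Kit*, *Slamf1*, *Ly6a*, *Cd48*, *Flt3*, *Cd34* and *Itgam* were named after their values were seen. The scanner error of a difference combines the 2 spots' errors. The first start listed stood for a gene's promoter (3 members had 2), and the windows of 50 and 100 bases were chosen after the matches were seen. Alternatives were quantile normalization, centring on detected probes, loess (span 0.3), normexp (offset 50), the authors' values, filters, other rules for the probe of a gene, and outlier spots kept. Calculations were tested on simulated data. The tools were R 4.3.3 with limma 3.58.1 and Python 3.11.15 with matplotlib 3.10.9, statsmodels 0.14.6, pandas 2.3.3 and numpy 2.4.6.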

Additional observations from a re-analysis of the deposited data

How the results depend on the processing

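No paired analysis was possible because each genotype has 1 array, and no replicate could be left out. Under quantile normalization, centring on detected probes, loess, the authors' values, either filter, the mean of a gene's probes, outlier spots kept and the probe with the highest unlogged mean (the last chosen after seeing the data), the members' median stayed between 0.14 and 0.20, and the counts of members lower, higher or past 1.5-fold stayed within 1.5 times those reported. Under normexp the members' median was 0.14, beside a median of all genes of 0.05 (-0.03 in the values reported), so the members lay closer to all genes. There 0 members were lower and 0 higher by at least 1.5-fold, where 5.27% and 2.51% of all genes still were, against 15.4% and 12.7% in the values reported. By the next brightest probe, which 12 members have, the median was -0.11, with 7 lower and 5 higher, of which 2 lower and 2 higher were past 1.5-fold, and by the brightest probe of the same 12 the median was 0.08 with 5 lower. All genes had a median of -0.13 by that probe. Fewer genes entered there, and the cause of the shift was not tested. Of 51 members 44 kept their sign under all 10 alternatives other than the next brightest probe. Those that did not were *Aurkb*, *Cdc25c*, *Cenpf*, *Kif18a*, *Kif23*, *Kif2c* and *Ncapd2*. *Kif23* went from -0.08 to a bound of -5.05 with the probe of the highest unlogged mean. Signals near background limit *Espl1*, *Cdc25c*, *Cenpf*, *Aurkb*, *Kif18a* and *Kif2c*.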

Other observations

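Cohesin, the ring that holds sister chromatids until separase opens it, was read from a list of 10 genes, all well above background on both arrays. Of these, 5 were higher and 5 lower on the array labelled p38KO, with a median difference of -0.05 (0.01 under the loess), and 0 were past 1.5-fold. The largest falls were the core subunit *Smc1a*, at 3.98 on the wild-type array and 3.49 on the other (-0.49), and the loader *Nipbl*, at 1.56 and 1.07 (-0.49). The largest rises were *Mau2*, the partner of *Nipbl* (0.33), and *Wapl*, which releases cohesin from chromatin (0.24). Of the other 6, *Pds5a* (-0.42) and *Stag2* (-0.26) were lower. *Rad21* (-0.12), *Smc3* (0.01), *Pds5b* (0.01) and *Stag1* (0.02) differed by less than the spot error.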
